A study of Mus musculus with 14 samples.

Results

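The respiratory chain subunits are the proteins of complexes I to V of the mitochondrial inner membrane, and the 82 genes described here encode subunits made from nuclear DNA. They were chosen by symbol (Nduf genes of the a, b, c, s and v series, Sdha to Sdhd, Uqcr, Cox4 to Cox8 and Atp5). Cyc1 of complex III has another symbol and is counted below with the electron carriers. Of 105 such symbols in the RefSeq table, 87 were protein coding and 83 had a probe on the array. Of these 83, 82 had a probe that the scanner software marked as well above background on 3 or more of the 14 arrays, and 81 of the 82 were above background on all 14, so the filter removed 1 gene, the testis isoform Cox8c. Cox5b, Ndufb1, Ndufb4b and Ndufb4c had no matched probe. The 82 are part of 30579 genes tested, of which 17290 had a symbol. The others were probes without a symbol, each counted as a gene of its own. The 82 comprise 35 subunits of complex I, 4 of complex II, 8 of complex III, 18 of complex IV (with Ndufa4 and Ndufa4l2) and 17 of complex V.

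RNA came from whole lungs of male C57BL/6N mice taken 1 month after an intratracheal instillation. The control mice (n = 5) received PBS vehicle, and each treated mouse received 200 µg of carbon fibre taken before recycling (VCF, n = 3), after carbonization (CCF, n = 3) or after firing (RCF, n = 3). Each array was hybridised with RNA of its own biological sample, and the ages of the mice and the dimensions of the fibres were not given in the sources used here. Carbon fibre reinforces plastics, and recycling uses heat to remove the resin around the fibres. The comparisons ask whether the lung responds to the fibre and whether that response differs between the stages of recycling. A level below is the log2 signal of a gene minus the 75th percentile of its array, so it is relative to the other RNA of the same lung, and a level of 0 is that percentile. A difference is a fitted difference of group means on this log2 scale, and a gene passed the test when its limma p-value, adjusted over all genes by Benjamini-Hochberg, was under 0.05.

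Complex I oxidises NADH and complex II oxidises succinate, and both hand the electrons to ubiquinone. Complex III passes them to cytochrome c, and complex IV, cytochrome c oxidase, passes them to oxygen. Complexes I, III and IV pump protons as they work, and complex V, the ATP synthase, uses the returning protons to make ATP. In the lung, alveolar type 2 cells, which make and recycle surfactant, and the beating ciliated cells of the airway are rich in mitochondria.

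Lung markers were bright on every array. The surfactant gene Sftpc lay between 7.61 and 9.78, the club cell gene Scgb1a1 between 7.53 and 9.78 and the alveolar type 1 gene Ager between 7.12 and 8.53. Control 2 stood apart. The median of 9 skeletal muscle markers, taken against the control mean, was 4.37 in control 2 and between -1.22 and -0.31 in the other control arrays, and the medians of brown fat and white fat markers were 3.16 and 3.66 in control 2. The 75th percentile of signal was 277 in VCF 1, 323 in CCF 2 and 375 in RCF 1, and between 891 and 2953 on the other arrays. The arrays lay on 3 slides, of which slide 1 held arrays of all 4 groups, slide 2 arrays of control, VCF and CCF, and slide 3 arrays of control and RCF. The medians over the genes and over each complex, the muscle isoforms and Atp5mpl are given with and without control 2. In whole lung, fewer cells of a type that is rich in these transcripts and less of the transcripts per cell cannot be told apart.

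Most of the subunit genes were lower in all 3 fibre groups than in control. The median difference over the 82 genes was -0.23 in VCF, -0.37 in CCF and -0.25 in RCF, against -0.0027, -0.0031 and 0.064 over all genes tested. The difference lay below 0 for 77 of the 82 genes in VCF, where 50.3% of all genes did, for 76 in CCF, where 50.3% did, and for 72 in RCF, where 42.9% did. The change passed the test for 7 genes in CCF, all of them lower. Across all genes, 5.99% passed in CCF in either direction and 2.21% passed as lower. Among the genes with a symbol the median differences were -0.03 in VCF, 0.05 in CCF and 0.04 in RCF. Of the 17290 tested in CCF, 7874 lay below 0, 292 passed as lower and 775 as higher. None of the 82 passed in VCF or in RCF, where 0.085% and 0.154% of all genes passed. At an unadjusted limma p under 0.05, 13 of the 82 were lower in VCF and 0 higher, against 4.99% of all genes lower and 4.97% higher. In CCF 45 were lower and 0 higher, against 10.8% of all genes lower and 12.9% higher. In RCF 27 were lower and 0 higher, against 4.15% lower and 8.78% higher. The 3 comparisons share the same control arrays.

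The shift was present on every fibre array. When each gene was set against its control mean, the median over the 82 genes was -0.10, 0.24, -0.07, -0.08 and 0.02 in controls 1 to 5. For VCF 1 to 3 it was -0.14, -0.21 and -0.28, for CCF 1 to 3 -0.36, -0.46 and -0.29, and for RCF 1 to 3 -0.34, -0.24 and -0.22. All 9 fibre arrays thus lay below all 5 control arrays, with VCF 1 nearest to the controls and CCF 2 farthest. Control 2 was the highest control array for 60 of the 82 genes. When the genes were set against the mean of the other 4 controls, VCF 1 was at -0.06, just below the lowest of those controls at -0.03, and the other 8 fibre arrays lay between -0.42 and -0.15.

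**Figure D1:**
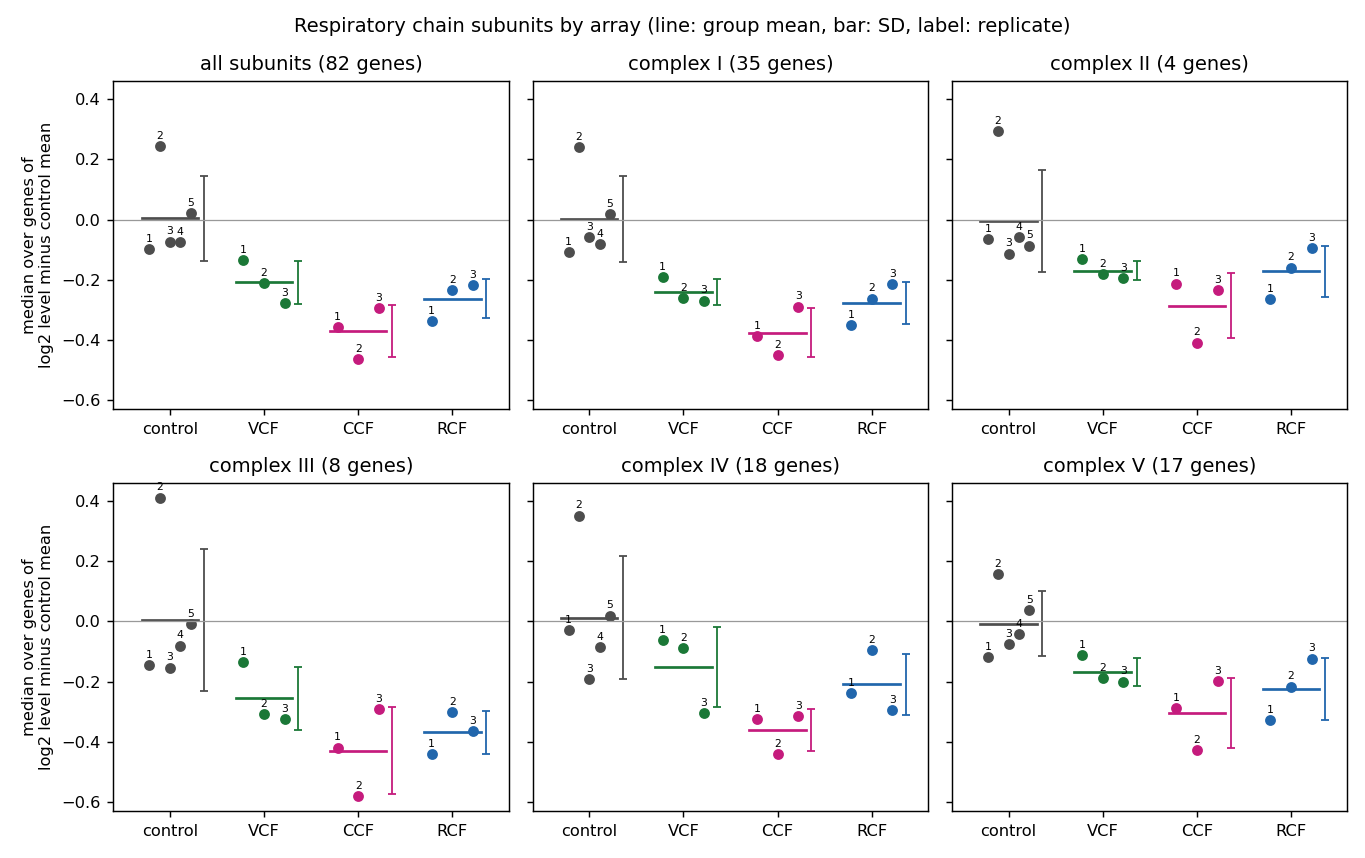
Median over the genes of each complex of the log2 level minus the control mean (vertical axis), by array, for control, VCF, CCF and RCF. Points are arrays labelled by replicate number, lines are group means and bars are SD; over all 82 genes the 9 fibre arrays lie between -0.46 and -0.14 and the control arrays between -0.10 and 0.24, with control 2 the highest.

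Without control 2, the median difference was -0.16 in VCF with 71 genes below 0, -0.30 in CCF with 75 below 0, and -0.19 in RCF with 69 below 0. The number that passed in CCF was again 7, of which 6 were of complex I and 1 was of complex V. Over all genes the number that passed in CCF rose from 1832 to 2717. Scaling the arrays by quantiles gave medians of -0.12, -0.22 and -0.19, with 64, 62 and 67 of the 82 genes below 0. In CCF 2 of the 82 then passed, while 1497 of all genes did. At an unadjusted limma p under 0.05, 13 of the 82 were then lower in CCF and 1 was higher. The median over all genes moved by less than 0.1 under that scaling. Within slide 1 the median difference was -0.26 in VCF, -0.52 in CCF and -0.40 in RCF. Within slide 2, with 1 array a group, it was -0.16 in VCF and -0.16 in CCF, and within slide 3 it was -0.18 in RCF. The direction was the same on each slide, with a smaller size outside slide 1. That slide held control 2 and also the dimmest arrays, VCF 1, CCF 2 and RCF 1.

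All 5 complexes had medians below 0 in all 3 groups. The median difference of complex I was -0.25 in VCF, -0.41 in CCF and -0.30 in RCF. That of complex II was -0.16, -0.31 and -0.17, and that of complex III was -0.25, -0.40 and -0.36. That of complex IV was -0.21, -0.34 and -0.19, and that of complex V was -0.21, -0.34 and -0.20. Without control 2 the medians were -0.20, -0.35 and -0.23 for complex I, -0.11, -0.25 and -0.08 for complex II and -0.17, -0.33 and -0.29 for complex III. They were -0.10, -0.27 and -0.15 for complex IV and -0.17, -0.31 and -0.17 for complex V, so the direction was kept, and in RCF 2 of the 4 genes of complex II then lay below 0. The 5 genes of complex I and the 2 of complex V made up the 7 that passed in CCF, and no gene of complexes II, III or IV passed in any comparison. At an unadjusted limma p under 0.05, 2 genes of complex II, 5 of complex III and 6 of complex IV were lower in CCF.

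**Figure D2:**
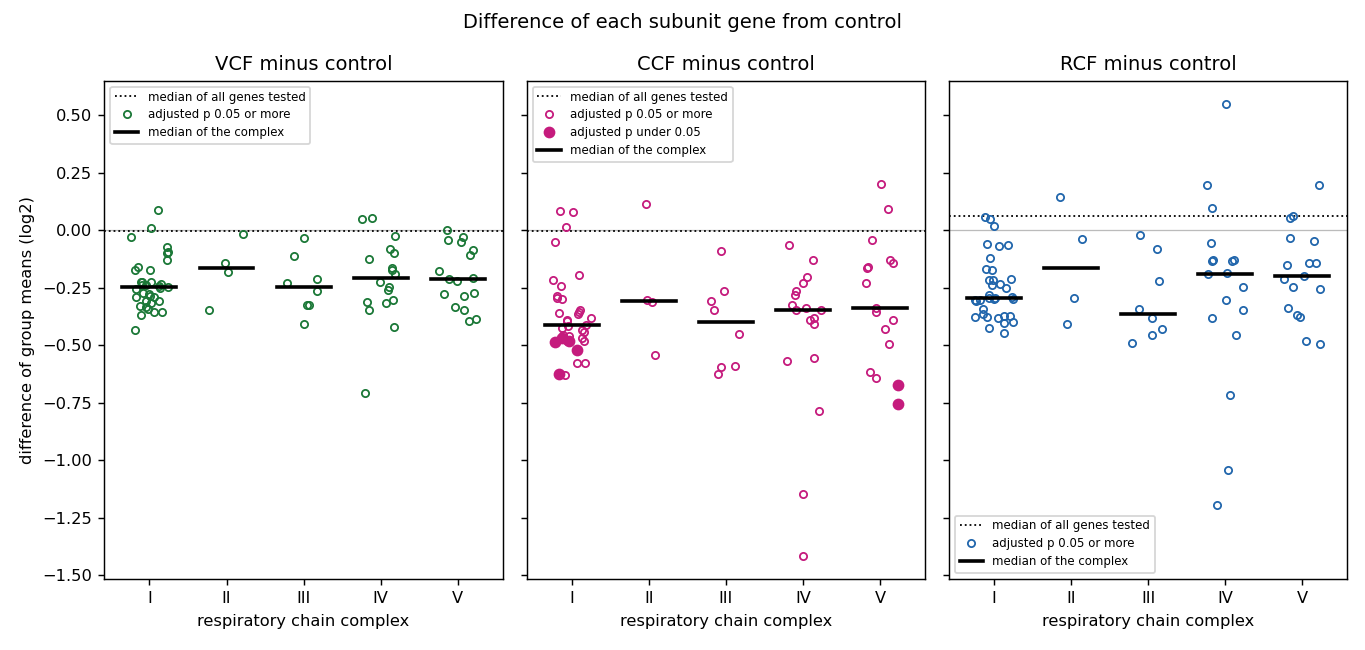
Difference of group means from control (log2, vertical axis) for each of the 82 genes, by complex, in VCF, CCF and RCF. Filled points passed the test (7 genes, all in CCF), thick lines are the medians of the complexes and the dotted line is the median of all genes tested; most points lie below 0 in every panel.

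Complex I has a core of catalytic subunits, which carry the flavin and the iron-sulfur clusters, and a larger set of accessory subunits that surround it. The accessory subunits, 28 of the 35 genes of complex I, held all 5 that passed the test in CCF. Of the 28, 27 lay below 0 in CCF, with a median of -0.42. Ndufb11, an accessory subunit of the membrane arm, was at 5.64, 5.58, 5.56, 5.59 and 5.71 in controls 1 to 5. It was at 5.48, 5.39 and 5.28 after VCF, 5.09, 5.09 and 5.22 after CCF and 5.31, 5.26 and 5.39 after RCF. Every fibre array lay below every control array, and the control arrays differed little among themselves. Ndufb11 fell by 0.48 in CCF (SE 0.098, 1.39-fold lower, limma adjusted p = 0.0201), and its difference was -0.23 in VCF and -0.30 in RCF, which did not pass the test.

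Ndufa2, an accessory subunit of the matrix arm with a thioredoxin-like fold, showed the same order of arrays. Its level was 4.50, 4.61, 4.54, 4.58 and 4.72 in the controls and 4.26, 4.25 and 4.33 in VCF. It was 3.97, 3.76 and 4.16 after CCF and 4.04, 4.34 and 4.50 after RCF. The 3 VCF and 3 CCF arrays lay clear of the controls, and RCF 3 lay just below control 1. Ndufa2 fell by 0.62 in CCF (SE 0.13, 1.54-fold lower, limma adjusted p = 0.0221).

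Ndufs5, which stands on the intermembrane side of the membrane arm, was at 4.45, 4.64, 4.29, 4.35 and 4.55 in the controls. It was at 4.28, 4.14 and 4.07 after VCF, 4.00, 3.95 and 4.01 after CCF and 4.18, 4.09 and 4.20 after RCF. The CCF arrays were the lowest and the closest together, and VCF 1 lay just under control 3. The fall in CCF was 0.47 (SE 0.11, limma adjusted p = 0.0323). A transcribed pseudogene, Ndufs5-ps, is annotated, so its probe could report both.

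Ndufs6, a zinc-binding accessory subunit needed for the last steps of assembly, was at 5.09, 5.38, 5.15, 5.12 and 5.28 in the controls. It was at 5.11, 4.77 and 4.99 after VCF, 4.76, 4.58 and 4.81 after CCF and 4.71, 4.89 and 4.81 after RCF. VCF 1 lay inside the control range, and the other 8 fibre arrays lay below it. The fall in CCF was 0.49 (SE 0.12, limma adjusted p = 0.0392), with the caution that the annotation holds a close copy, Ndufs6b. Ndufb9, an accessory subunit of the membrane arm with an LYR motif, was at 5.32, 5.75, 5.28, 5.22 and 5.41 in the controls, 5.31, 5.11 and 5.10 after VCF, 4.94, 4.74 and 4.94 after CCF and 4.87, 5.05 and 5.13 after RCF. Here too VCF 1 lay among the controls while all CCF and RCF arrays lay below them, and the fall in CCF was 0.52 (SE 0.14, limma adjusted p = 0.0472).

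The core subunits of complex I had smaller differences in CCF, although the gap to the accessory subunits was not tested. The 7 genes had a median difference of -0.29 in CCF with 5 below 0, and none passed the test (3 at an unadjusted limma p under 0.05). Ndufs1, the large iron-sulfur subunit, was at a mean of 2.94 ± 0.19 (SD, n = 5) in control and 3.02 ± 0.09 (SD, n = 3) in CCF, a difference of 0.08. Ndufv1, the flavin subunit that takes the electrons from NADH, was 4.75 ± 0.15 (SD, n = 5) in control and differed by -0.29, -0.19 and -0.21 in VCF, CCF and RCF. Ndufs8, an iron-sulfur subunit, had the lowest difference of complex I in VCF, at -0.43, and was at -0.47 in CCF, where CCF 1 was at 3.30 and CCF 3 at 4.17. No difference of these 3 genes passed the test.

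Among the accessory subunits that did not pass, Ndufa5 had the lowest difference of complex I in CCF, at -0.63 (SE 0.17, limma adjusted p = 0.0544), with all 9 fibre arrays below the controls. Ndufa3 had the lowest in RCF, at -0.45, and control 2, at 5.35, lay above the other controls at 4.58 to 4.75. Ndufc2 had differences of -0.09, 0.02 and 0.06, with control 2 at 4.29 below the other controls at 4.51 to 4.60. Over the whole set, 11 genes had all 9 fibre arrays below all 5 controls, against 0.562% of all genes: Ndufa2, Ndufa5, Ndufb5, Ndufb7, Ndufb11, Ndufs5, Ndufs7 and Ndufv3 of complex I, Ndufa4l2 of complex IV, and Atp5d and Atp5o of complex V. Taken by group, all arrays lay below all controls for 14 genes in VCF, 35 in CCF and 32 in RCF, against 3.91%, 6.46% and 3.77% of all genes.

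Complex II, succinate dehydrogenase, is also an enzyme of the citrate cycle. No difference of its 4 subunits passed the test, and the subunits were not tested against each other. Sdhb, the iron-sulfur subunit, was at 4.82, 5.32, 4.76, 4.93 and 5.14 in the controls, and at 4.89, 4.62 and 4.43 in VCF. It was at 4.51, 4.44 and 4.42 after CCF and 4.59, 4.67 and 4.84 after RCF. The CCF arrays lay below all controls, and VCF 1 and RCF 3 lay within the control range. Its difference in CCF was -0.54 (SE 0.15), which did not pass the test at an adjusted limma p of 0.0588. A second, dimmer probe of Sdhb was at -0.11 in VCF, -0.15 in CCF and 0.12 in RCF. Sdha, the flavin subunit that binds succinate, was at 3.40 ± 0.15 (SD, n = 5) in control, and its differences of -0.01, 0.12 and 0.14 were the highest of the complex in each group. Sdhc, a membrane anchor, had the lowest difference in RCF, at -0.41.

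In complex III the medians of the small subunits lay below those of the core proteins. The 5 small subunits (Uqcrb, Uqcrh, Uqcrq, Uqcr10 and Uqcr11) had a median of -0.26 in VCF, -0.59 in CCF and -0.43 in RCF, and all 5 were lower in CCF at an unadjusted limma p under 0.05. The core proteins Uqcrc1 and Uqcrc2 and the Rieske iron-sulfur protein Uqcrfs1 had a median of -0.21, -0.27 and -0.22, with 0 of 3 at that p in CCF. Uqcrc1 was at 3.93 ± 0.25 (SD, n = 5) in control and differed by -0.32, -0.27 and -0.38, and Uqcrfs1 was at 2.88 ± 0.32 (SD, n = 5) and differed by -0.21, -0.31 and -0.22. Uqcrq, which sits beside cytochrome b, was at 4.65, 5.40, 4.69, 4.90 and 5.10 in the controls, 4.76, 4.41 and 4.46 after VCF, 4.18, 4.25 and 4.54 after CCF and 4.27, 4.52 and 4.58 after RCF. Its differences of -0.41, -0.62 and -0.49 were the lowest of complex III in each group. Uqcrh, the hinge protein that helps cytochrome c dock, was the highest in VCF, at -0.03, and differed by -0.35 in CCF and -0.34 in RCF. Uqcrc2 was the highest in CCF and RCF, at -0.09 and -0.02. No gene of complex III passed the test, and the difference between small and core subunits was not tested.

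Complex IV has ubiquitous subunits and isoforms used mainly in muscle, testis or under low oxygen. The 11 ubiquitous genes had medians of -0.12 in VCF, -0.34 in CCF and -0.14 in RCF, and all 11 lay below 0 in CCF. Cox4i1, the largest of the nuclear-encoded subunits and a site of regulation by ATP, was at 6.22 ± 0.15 (SD, n = 5) in control and differed by -0.08, -0.34 and -0.35. Cox5a, its partner on the matrix side, was at 4.99 ± 0.22 (SD, n = 5) and differed by -0.30, -0.34 and -0.45. Cox6a1, Cox7a2 and Cox7b differed in CCF by -0.34, -0.39 and -0.57. Cox8a had the smallest difference of these in CCF, at -0.06. Cox7c was at 0.05 in VCF, -0.33 in CCF and 0.10 in RCF. None of these differences passed the test. A second, dimmer probe of Cox7c, which was not tested, was at -0.50, -0.835 and -0.05.

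Cox6b1, which helps hold the complex IV dimer together, did not follow the common order. It was at -0.32, -0.36, -0.12, -0.01 and 0.01 in the controls and -0.80, -0.41 and -0.31 in VCF. It was at -0.89, -1.02 and -0.23 after CCF and -0.23, 0.14 and 0.20 after RCF. RCF 2 and RCF 3 lay above all controls and RCF 1 within their range, while VCF 1, VCF 2, CCF 1 and CCF 2 lay below it. RCF exceeded CCF by 0.75 (SE 0.22), which did not pass the test at an adjusted limma p of 0.461. RCF 2 and RCF 3 lay on slide 3 with controls 4 and 5, the highest controls, and no VCF or CCF array lay on that slide. Fibre and slide were thus partly confounded in this difference. On slide 1, RCF 1 lay above VCF 1, VCF 2, CCF 1 and CCF 2.

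Ndufa4, once counted in complex I and now placed in complex IV, differed by -0.25, -0.41 and -0.05. Ndufa4l2, its relative that is induced by hypoxia, was at 2.59, 2.61, 2.66, 2.62 and 2.52 in the controls and 2.04, 2.12 and 2.37 in VCF. It was at 2.34, 2.34 and 2.29 after CCF and 2.37, 2.50 and 2.36 after RCF. The controls spanned a narrow range that no fibre array entered, and VCF 1 and VCF 2 were the lowest of all 14 arrays. Its differences were -0.42 in VCF (SE 0.10), -0.28 in CCF and -0.19 in RCF, none past the test, with an adjusted limma p of 0.170 in VCF. Cox4i2, the isoform of the lung and of cells that sense oxygen, was at 0.52 ± 0.28 (SD, n = 5) in control, and its differences of -0.31, -0.26 and -0.19 were about as large as the spread between the controls. The testis isoform Cox6b2 differed by -0.17, -0.13 and -0.13. The testis isoform Cox7b2, above background on 13 of the 14 arrays, had the lowest difference of complex IV in CCF, at -1.42, and the highest in RCF, at 0.55, neither past the test, with control 3 at -5.02 and the other controls at -2.25 to -1.33. Leaving out 1 array at a time gave -2.05 to -0.97 for Cox7b2 in CCF. In RCF it gave -0.09 to 1.11, and the difference was not above 0 without control 3 or without RCF 2.

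Cox7a1 had the lowest difference of complex IV in VCF, at -0.71, and Cox8b the lowest in RCF, at -1.19, and both moved with control 2. Cox7a1, found in heart, skeletal muscle and brown fat, was at 1.12, 4.64, 2.48, 1.05 and 2.48 in the controls, 1.81, 1.79 and 1.33 after VCF, 2.29, 1.04 and 1.37 after CCF and 1.46, 1.63 and 0.83 after RCF. Cox8b, of the same tissues, was at -0.15, 4.08, 0.87, -0.04 and 1.21 in the controls, 0.62, 1.74 and 0.28 after VCF, 0.89, -0.80 and 0.06 after CCF and -0.26, 0.47 and -0.21 after RCF. For both genes control 2 was far above every other array and controls 1 and 4 were low. The difference of Cox7a1 in RCF was -1.04 with all arrays and -0.47 without control 2, and that of Cox8b in RCF was -1.19 with all arrays and -0.47 without it. In VCF that of Cox8b turned from -0.31 to 0.41 without control 2.

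Cox6a2, the heart and skeletal muscle isoform, followed the heart markers. It was at 2.12, 3.23, 3.19, 2.09 and 3.00 in the controls, 2.57, 2.70 and 2.41 after VCF, 3.03, 1.77 and 2.23 after CCF and 1.88, 2.33 and 1.82 after RCF. Controls 2, 3 and 5 and CCF 1 were the high arrays. The median of the 12 heart muscle markers was 0.64, 0.72 and 0.67 in those controls and 0.91 in CCF 1, and it was -1.02 in control 1, -1.01 in control 4 and between -1.59 and 0.16 on the other fibre arrays. The part of these tissues in the differences of the isoforms was not tested. Their ubiquitous partners Cox6a1, Cox7a2 and Cox8a spanned far less among the controls, with SDs of 0.24, 0.12 and 0.27 against 0.57 for Cox6a2, 1.46 for Cox7a1 and 1.71 for Cox8b.

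**Figure D3:**
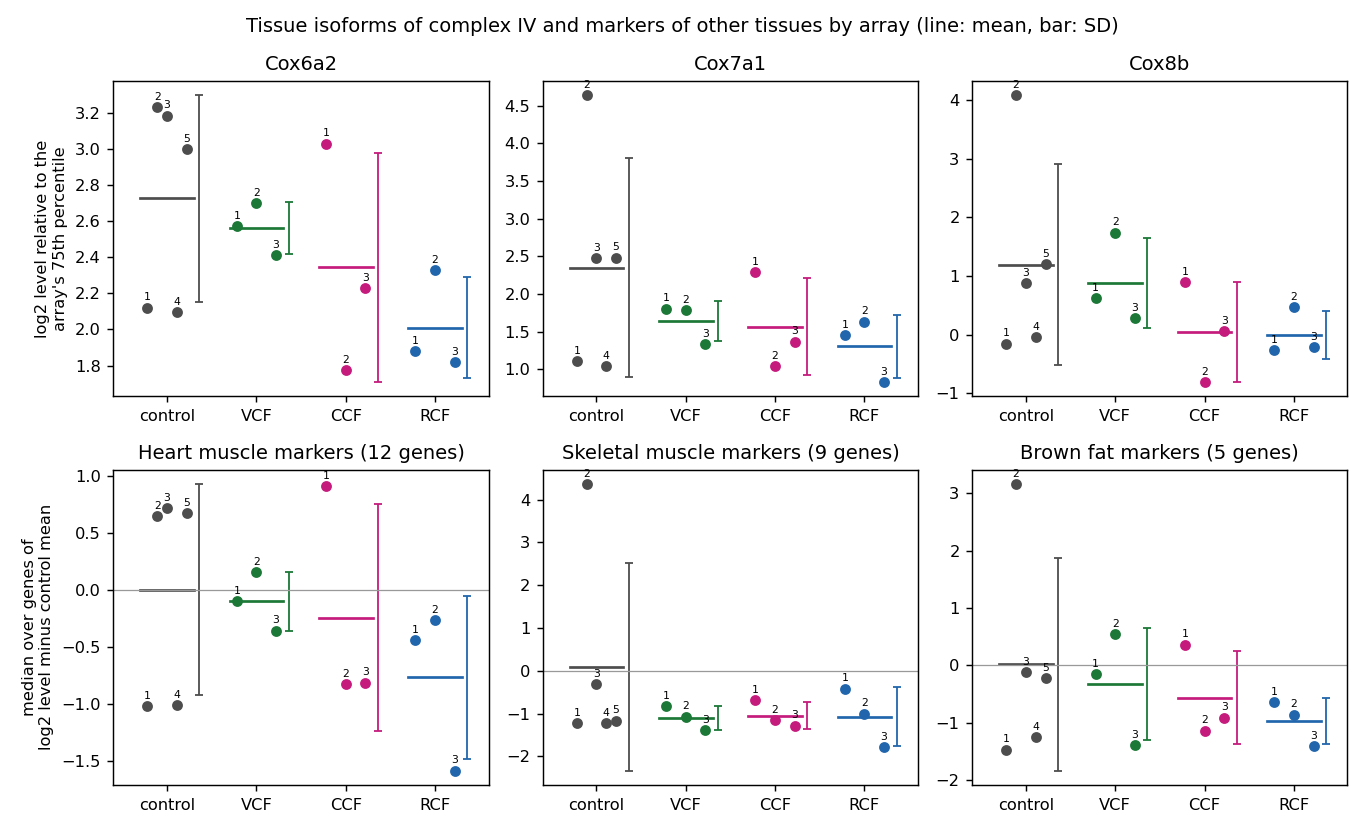
Levels of Cox6a2, Cox7a1 and Cox8b (log2 relative to the 75th percentile of the array) and, below, medians of heart muscle, skeletal muscle and brown fat markers (log2 level minus control mean), by array and group, with group means (lines) and SD (bars). Control 2 is the highest array for Cox7a1 at 4.64, Cox8b at 4.08, skeletal muscle markers at 4.37 and brown fat markers at 3.16, while Cox6a2 is high in controls 2, 3 and 5 and in CCF 1 as the heart markers are.

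Complex V joins a catalytic F1 head, which holds the alpha and beta subunits, to a membrane ring of c subunits through a central and a peripheral stalk. Atp5d, the delta subunit of the central stalk, had the largest fall of the 7 genes that passed. It was at 3.33, 3.68, 3.40, 3.52 and 3.31 in the controls, 2.84, 3.15 and 3.17 after VCF, 2.52, 2.54 and 3.02 after CCF and 3.01, 3.18 and 3.02 after RCF. All 9 fibre arrays lay below all controls, with CCF 1 and CCF 2 the lowest. Atp5d fell by 0.75 in CCF (SE 0.15, 1.69-fold lower, limma adjusted p = 0.0189), and its differences of -0.39 in VCF and -0.38 in RCF did not pass the test. Atp5e, the epsilon subunit of the same stalk, differed by -0.39, -0.64 and -0.49, with an adjusted limma p of 0.0587 in CCF.

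The alpha and beta subunits, which make the ATP, had small differences on the probes in use. Atp5b, the beta subunit, was at 6.23, 6.41, 5.94, 5.91 and 5.98 in the controls, 6.07, 6.21 and 6.01 after VCF, 6.31, 6.48 and 6.09 after CCF and 6.56, 5.88 and 6.01 after RCF. The groups overlapped throughout, and its differences of 0.0016, 0.20 and 0.05 had an SE of 0.18. Atp5a1, the alpha subunit, was at 5.82 ± 0.17 (SD, n = 5) in control and differed by -0.21, -0.13 and -0.03. A second, dimmer probe of Atp5a1 was at 0.17, 0.46 and -0.02. Further probes of Atp5b were at -0.04, 0.10 and -0.04, and, at a mean level of -0.01, at 0.45, 0.86 and 0.33. The 3 c-ring genes Atp5g1, Atp5g2 and Atp5g3, which encode the same mature protein, had a median of -0.22 in VCF, -0.14 in CCF and -0.14 in RCF.

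The small membrane subunits, which join ATP synthases into dimers or sit beside the c ring, had a median of -0.39 in CCF, and all 5 lay below 0 in all 3 groups. Atp5mpl, one of them, was at 3.73, 3.85, 3.69, 3.74 and 4.09 in the controls, 3.84, 3.63 and 3.36 after VCF, 2.94, 2.99 and 3.50 after CCF and 3.10, 3.50 and 3.42 after RCF. VCF 1 lay within the control range, CCF 1 and CCF 2 lay far below it, and CCF 3 was nearer to it. Its fall in CCF was 0.67 (SE 0.17, limma adjusted p = 0.0428), and without control 2 the adjusted p was 0.0502. Of the peripheral stalk, Atp5j had the highest difference of complex V in RCF, at 0.20, after -0.05 in VCF and -0.16 in CCF. In RCF it ranged from 0.04 to 0.46 when 1 array was left out, and without control 2 it was 0.10, below Atp5pb at 0.16 and Atp5b at 0.13.

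**Figure D4:**
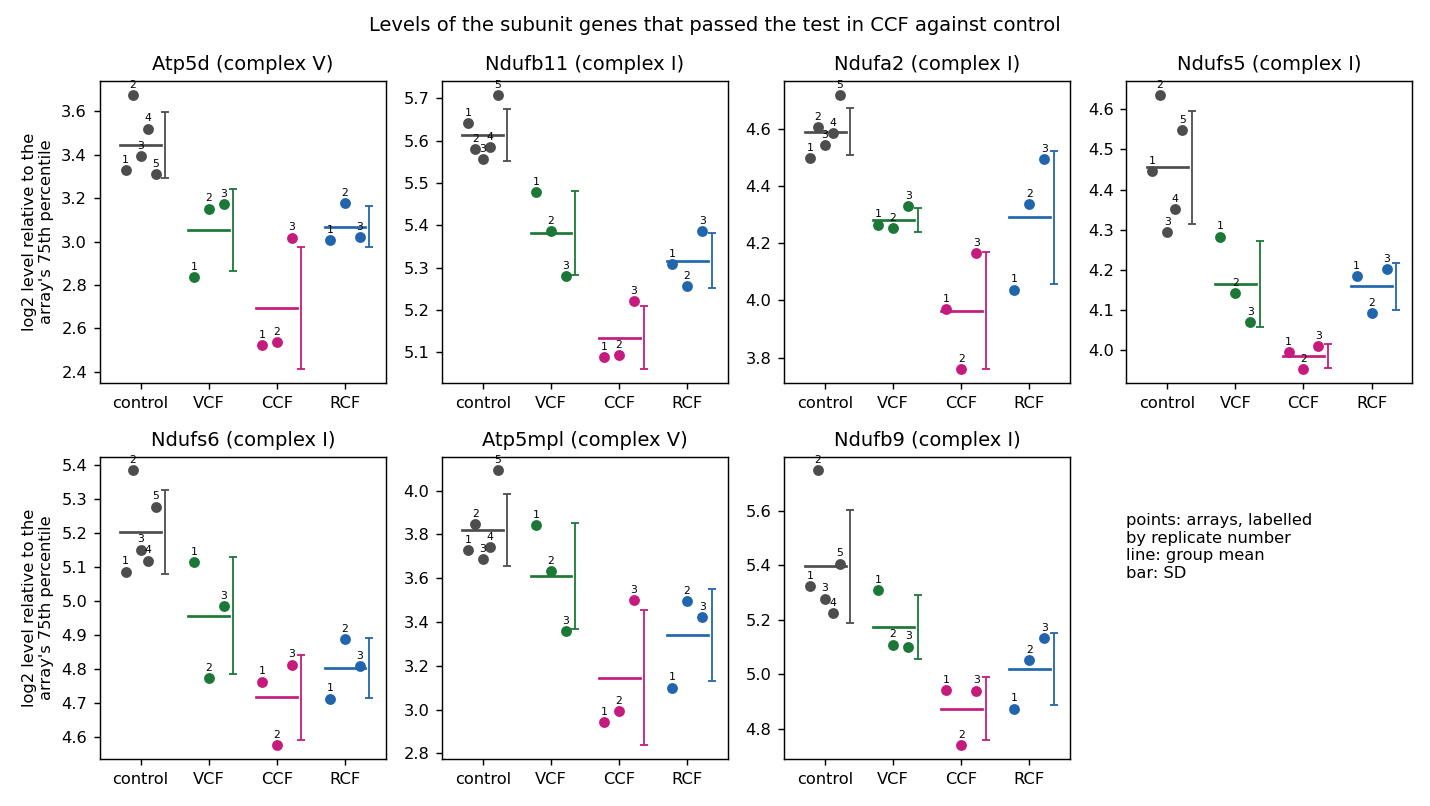
Levels of Atp5d, Ndufb11, Ndufa2, Ndufs5, Ndufs6, Atp5mpl and Ndufb9 (log2 relative to the 75th percentile of the array, vertical axes of different range) by array and group, with group means (lines) and SD (bars). The CCF arrays lie below all 5 control arrays for each gene, and VCF 1 reaches the control range for Ndufs6, Atp5mpl and Ndufb9.

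The 7 calls in CCF rested on few arrays. None passed the limma test when CCF 1, CCF 2 or control 4 was left out, with 32, 27 and 44 of the 82 genes then lower at an unadjusted p under 0.05. Over all genes the number that passed in CCF then fell from 1832 to 531, 258 and 533, while the median over the 82 genes was -0.37, -0.33 and -0.41. The number of the 82 was 3 without control 1, control 5 or RCF 2 and 4 without RCF 3. Over all genes the number was then 893, 877, 1154 and 1389. Of the 82, 0 passed, with 26 at an unadjusted p under 0.05, when the 3 dimmest arrays, among them CCF 2, were left out. Of all genes 418 passed then. The fitted differences of the 7 genes stayed below 0 under all 27 alternatives tried. For Atp5d the difference ranged from -0.92 to -0.62 and the test was passed under 20 of the 27, and for Ndufb9 the range was -0.58 to -0.18 and it was passed under 8. Ndufb11 ranged from -0.52 to -0.17 and passed under 18, while leaving out 1 array at a time gave -0.52 to -0.46.

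The fibre groups were also compared with each other. None of the 82 genes passed the limma test in CCF against VCF, RCF against VCF or RCF against CCF, where 0.222%, 0.00981% and 0.00327% of all genes passed. At an unadjusted p under 0.05, 4 genes differed in CCF against VCF, 2 in RCF against VCF and 4 in RCF against CCF, while 13.8%, 9.05% and 9.26% of all genes did, so these counts were below the background. The median difference was -0.16 in CCF against VCF, -0.03 in RCF against VCF and 0.09 in RCF against CCF. Within slide 2 the median of CCF against VCF was -0.0064, with 1 array a group. The 4 genes lower in CCF than in VCF were Atp5mpl, Ndufa6, Ndufa7 and Ndufb11, with differences of -0.46, -0.37, -0.33 and -0.25. Cox6b1 and Ndufs4 were the 2 genes higher in RCF than in VCF, by 0.55 and 0.30. Cox6b1, Cox7c, Atp5d and Ndufa2 were higher in RCF than in CCF, by 0.75, 0.42, 0.38 and 0.33. RCF 2 and RCF 3 lay on slide 3, which held no VCF or CCF array. Fibre and slide were thus partly confounded in the comparisons of RCF with VCF and CCF.

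Other genes of mitochondria were followed from lists of names. The mitochondrial ribosome, which translates the subunits encoded in mitochondrial DNA, had a median over 78 genes of -0.17 in VCF, -0.20 in CCF and -0.10 in RCF, and 7 of its genes were lower and 1 was higher past the test in CCF. Mrpl33 fell by 0.62 (limma adjusted p = 0.0205), and Mrpl35 rose by 1.02. The 44 measured assembly factors, which build the complexes and are not part of them, had medians of -0.11, -0.12 and 0.0058, and Coa3, a factor for complex IV, was the 1 that passed, with a fall of 0.39 in CCF. The 13 enzymes of the citrate cycle had medians of -0.03, 0.03 and -0.08, and the 16 electron carriers and coenzyme Q enzymes of -0.03, 0.05 and -0.06. None of either list passed in any fibre group against control. At an unadjusted limma p under 0.05 in CCF, 2 of the citrate cycle genes were higher and 0 lower, and 1 of the electron carrier genes was higher and 1 lower. Of all genes, 12.9% were higher and 10.8% lower at that p.

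Of the 13 regulators of mitochondrial biogenesis, 1 passed the test. Ppargc1a, the coactivator that drives transcription of respiratory genes, was at -0.58, -0.38, -0.35, -0.85 and -0.22 in the controls and -0.41, -0.45 and -0.53 in VCF. It was at -1.54, -1.61 and -1.38 after CCF and -1.34, -0.73 and -0.49 after RCF. The CCF arrays lay below every other array, RCF 1 was nearest to them, and VCF overlapped the controls. Ppargc1a fell by 1.03 in CCF (SE 0.19, limma adjusted p = 0.0155), and differed by 0.01 in VCF and -0.37 in RCF. The transcription factors Nrf1 and Gabpa, which act on promoters of subunit genes, differed in CCF by 0.53 and 0.36, and Tfam, which packs mitochondrial DNA, by 0.27, none past the test. The median of the 13 was -0.02, 0.25 and 0.07.

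Cytosolic ribosomal proteins and proteasome subunits, which have no part in respiration, were added after the subunit genes had been seen. The 84 ribosomal protein genes had medians of -0.14 in VCF, -0.41 in CCF and -0.20 in RCF, with 82 of 84 below 0 and 4 lower past the test in CCF. The 39 proteasome genes had medians of -0.13, -0.12 and -0.11. With all arrays, the shift of the respiratory chain genes in CCF was close in size to that of the cytosolic ribosomal proteins, while the citrate cycle genes had a median near 0. Against the control mean, control 2 was at 0.44 for the citrate cycle genes, with the other controls between -0.17 and -0.02. For the ribosomal proteins it was at 0.0043, with the others between -0.10 and 0.05. These lists were not fitted again without control 2, where the respiratory chain genes had a median of -0.30 in CCF.

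The differences of the other genes varied with their signal level. Among the other genes with a symbol, those at a mean level of 4 to 6 had median differences of -0.10 in VCF, -0.05 in CCF and -0.06 in RCF, where the 42 subunit genes of that level had -0.25, -0.41 and -0.29. Between 2 and 4 the other genes were at -0.07, 0.02 and -0.03 and the 27 subunit genes at -0.21, -0.31 and -0.19. Above 6 the 206 other genes were at -0.10, -0.32 and -0.16 and the 5 subunit genes at -0.08, -0.34 and -0.34. The subunit genes were thus lower than genes of like signal up to a level of 6, and in VCF and CCF close to them above it. The part of signal level in the result was not tested.

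**Figure D5:**
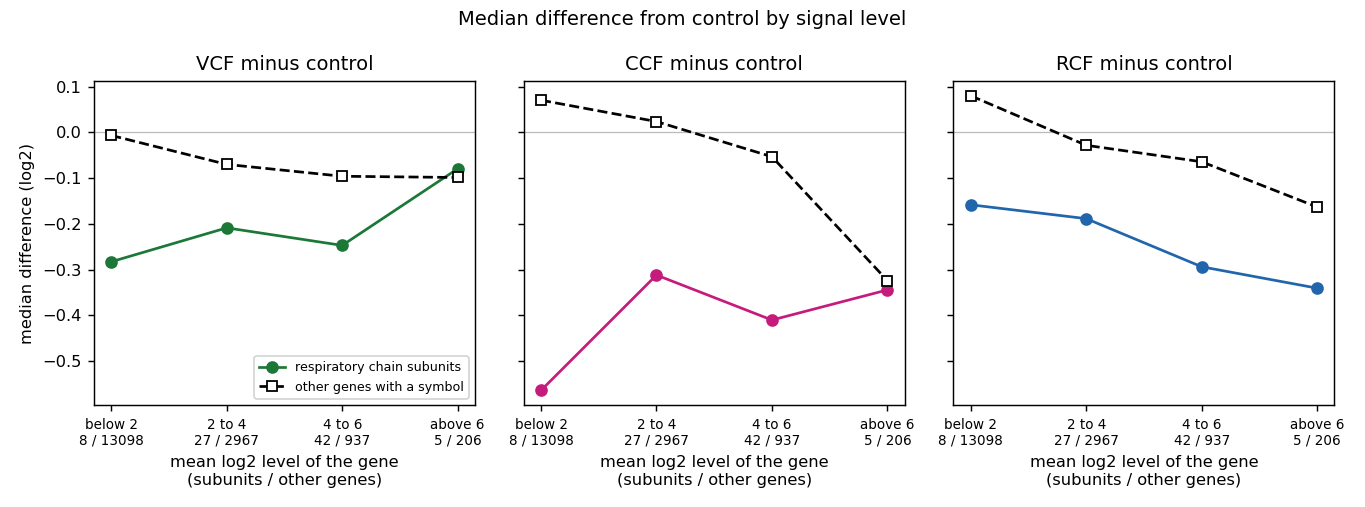
Median difference from control (log2, vertical axis) of the subunit genes (circles) and of the other genes with a symbol (squares), by mean log2 level of the gene, in VCF, CCF and RCF, with the number of genes in each class under the axis. In CCF the 42 subunit genes at a level of 4 to 6 are at -0.41 and the 937 other genes at -0.05, while above 6 both are near -0.33.

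Markers of several cell types moved with the groups as well. The median of the 5 neutrophil markers, against the control mean, lay between 0.71 and 1.40 on the VCF arrays, between -2.32 and -1.44 on the CCF arrays and between -0.41 and 0.35 on the RCF arrays, and 4 of the 5 were lower past the test in CCF. That of the 6 lymphocyte markers lay from -0.24 to 0.21 on the control arrays, and from -0.80 to -0.51 after VCF, from -0.36 to -0.14 after CCF and from -0.66 to -0.34 after RCF. The median of the 5 markers of cycling cells lay from -0.28 to 0.43 on the control arrays, from -1.42 to -0.86 after VCF, from 0.15 to 0.55 after CCF and from -0.40 to -0.19 after RCF. That of the 4 red cell markers lay from -1.24 to 0.94 in the controls, from -2.34 to -1.04 after VCF, from 0.29 to 1.20 after CCF and from -0.61 to 0.16 after RCF. The 3 endothelial markers had a median difference of -0.33, -0.34 and -0.50, with 1 of the 3 higher in CCF, at 0.33. By array their median lay from -0.14 to 0.25 in the controls, at 0.05 in VCF 1 and from -0.57 to -0.21 on the other fibre arrays. The medians of alveolar type 2 markers overlapped between the groups, at -0.29 to 0.33 in the controls. They were at 0.61 in VCF 1 and at -0.30 to 0.04 on the other fibre arrays. Those of the 4 airway markers lay from -0.32 to 0.23 in the controls, at 0.84 in VCF 1 and from -0.41 to 0.04 on the other fibre arrays. The 4 alveolar type 1 markers had median differences of -0.11, -0.23 and -0.14, with all 4 below 0 in each group. No alveolar or airway marker passed the test against control. The part of these cells in the result was not tested.

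Second probes gave a smaller shift. For 17 of the 82 genes, 19 further probes had passed the filter, and 15 of them lay below 0 in VCF, 15 in CCF and 13 in RCF, with medians of -0.14, -0.20 and -0.07. The sign was that of the probe in use for 14 of the 19 in VCF, 17 in CCF and 14 in RCF. None of the 7 genes that passed had a further probe.

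Promoters of nuclear respiratory genes are known for sites of NRF1, of ETS factors such as GABPA, and of YY1. Promoter windows of 300 bases, from 250 before to 50 after a start (RefSeq, GRCm38.p6), were held for 67 of the 82 genes. They were searched on both strands for GCGCATGCG (NRF1), CCGGAAG (ETS) and AAGATGGCG (YY1), where the last letters of the ETS motif are the first of the YY1 motif, so that a match of each can overlap. At least 1 of these was found for 27 of the 67 genes, or 40.3%, against 20.5% of the 13651 tested genes with a window and 12.7% of all 27025 genes of the table. NRF1 letters were in 11.9% against 3.19% of tested genes, ETS letters in 25.4% against 16.0%, and YY1 letters in 10.4% against 2.75%. The share was 35.5% in complex I, 66.7% in complex II (2 of 3 genes), 60% in complex III (3 of 5), 23.1% in complex IV and 53.3% in complex V. Of the 4 genes that passed in CCF and had a window, Atp5d, Ndufb11 and Ndufs5 held none of the letters and Ndufs6 held those of YY1 after its start.

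The 3 genes with letters of more than 1 of these factors before a start are shown with the 250 bases before it, since they show how the sites stand in such a promoter. All 3 lie on the minus strand and are written 5′ to 3′ in the direction of transcription, with matches in capitals. For Cox6a1 (chr5:115348959-115349208) the capitals are overlapping NRF1 letters of both strands and, near the start, ETS letters. For Atp5l (chr9:44920743-44920992) they are NRF1 and then ETS letters, and for 1 of the 2 starts of Atp5j (chr16:84834977-84835226) they are YY1 and then ETS letters.
Cox6a1: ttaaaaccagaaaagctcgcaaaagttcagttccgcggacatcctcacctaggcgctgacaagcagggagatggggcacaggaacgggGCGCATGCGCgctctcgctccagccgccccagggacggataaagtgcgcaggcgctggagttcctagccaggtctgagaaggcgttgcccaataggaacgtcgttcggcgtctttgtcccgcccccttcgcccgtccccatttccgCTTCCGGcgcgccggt
Atp5l: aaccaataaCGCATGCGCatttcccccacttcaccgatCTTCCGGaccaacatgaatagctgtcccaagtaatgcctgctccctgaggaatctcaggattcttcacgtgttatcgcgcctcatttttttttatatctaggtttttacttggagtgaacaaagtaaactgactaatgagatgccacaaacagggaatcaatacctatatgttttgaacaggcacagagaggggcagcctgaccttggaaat
Atp5j: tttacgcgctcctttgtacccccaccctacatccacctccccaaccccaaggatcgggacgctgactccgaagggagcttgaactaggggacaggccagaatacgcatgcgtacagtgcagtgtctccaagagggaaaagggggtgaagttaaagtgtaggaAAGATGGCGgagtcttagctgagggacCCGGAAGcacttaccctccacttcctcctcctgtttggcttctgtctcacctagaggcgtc
Cox6a1 differed by -0.26 in VCF, -0.34 in CCF and -0.30 in RCF, Atp5l by -0.27, -0.39 and -0.37, and Atp5j by -0.05, -0.16 and 0.20. None of these differences passed the test.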

How the data were processed

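RNA of 14 mouse lungs was labelled with Cy3 and hybridised to one-colour Agilent arrays, 1 per mouse. The intensity values used here are the processed signals deposited by the authors, made with Feature Extraction 10.7.3.1 per the file headers. The authors' deposited log2 table equals the log2 processed signal minus a constant per array (column medians between -0.52 and 0.30, with blanks at dim probes), and the origin of the constants is unknown.

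Here log2 processed signals minus the 75th percentile of each array were used. Probes well above background on at least 3 arrays were kept (37983 of 56605), spots of a probe were averaged, and a gene was represented by its probe of highest mean. Symbols came from RefSeq accessions (GRCm38.p6), which matched 32994 probes and left 23611 unnamed. An unnamed probe that was kept counted as a gene of its own. limma 3.58.1 (R 4.3.3) was fitted to 30579 genes on all 14 arrays, with 4 groups sharing 1 estimate of spread, no covariates and Benjamini-Hochberg adjustment over all genes in each of 6 comparisons. The script was tested on simulated data. The number of arrays limits the precision.

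The genes, lists and tests were chosen with earlier results of these data known. Named genes are those past the threshold, the highest and lowest of each complex and comparison with control, the catalytic subunits, and the tissue isoforms with their partners. All genes this rule names are described, except 1 that is not reported here. Alternatives covered scaling, background, filter, probe, slide, replicate number, the deposited table and leaving out arrays. No probe matched a subunit encoded in mitochondrial DNA.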

Additional observations from a re-analysis of the deposited data

Results flagged for a closer look

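In 48 quantities screened, 6 had a control array far from the other 4, and chance would mark about 1 in 20 groups. Control 2 was the array in 5 of the 6. Its median over the genes of complex II was 0.29, with the other controls between -0.11 and -0.06. Over the genes of complex III it was 0.41, with the others between -0.15 and -0.01. Sdha was at 3.67 in control 2 and at 3.27 to 3.36 in the others, and Ndufa3 was at 5.35 in control 2 and at 4.58 to 4.75 in the others. Ndufc2 went the other way, at 4.29 in control 2 against 4.51 to 4.60. Cox7b2, the dim testis isoform, was at -5.02 in control 3 and between -2.25 and -1.33 in the others.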

How the results depend on the processing

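The medians of the subunit genes stayed below 0 in VCF, CCF and RCF against control under every alternative run, and no result changed sign past the test. For VCF the median was -0.12 with quantile scaling and -0.11 with normexp background and quantile scaling. For CCF it was -0.22 with quantile scaling, -0.19 with normexp and quantile scaling, -0.52 within slide 1, -0.16 within slide 2 and -0.24 without control 2 and the 3 dimmest arrays, an alternative chosen after seeing the data. For RCF it was -0.40 within slide 1, and for CCF against VCF it was -0.0064 within slide 2. Leaving out 1 array at a time gave medians of -0.27 to -0.16 in VCF, -0.45 to -0.30 in CCF and -0.29 to -0.19 in RCF.

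The number of subunit genes past the test in CCF against control, 7, was 2 with quantile scaling and 2 with normexp and quantile scaling. It was 4 with slide as a fixed block and 0 without the 3 dimmest arrays. Over all genes the number was 1832 in the main fit and 1497, 1609, 1869 and 418 in these settings. Of the subunit genes, 15 passed with slide as a random block and 17 in the authors' deposited table. When probes had to be above background on all arrays, 21 of 81 passed. Over all genes 2953, 2333 and 2700 passed in these settings. With no filter on dim probes 0 of 83 subunit genes passed (limma, 40 lower at an unadjusted p under 0.05), and 372 of all genes did. Without control 2 and the 3 dimmest arrays 0 passed (22 lower), and 1461 of all genes did. Leaving out 1 array at a time gave 0 to 10 subunit genes and 258 to 2717 of all genes. In the other 5 comparisons the number of subunit genes was 0 under every alternative. The replicate numbers were not taken as pairs, since only 12 of 18 same-numbered pairs correlated above 0.1 (median r 0.18), against 8 of 36 pairs of other numbers (median r -0.11). With the replicate number as a block, 0 of the 82 genes passed in CCF by limma (35 lower at an unadjusted p under 0.05), as did 2 of all genes. Among the named genes in the comparisons with control, 3226 values kept their call or moved by less than the spread between replicates. Another 68 moved by more, 88 lost the test and 17 gained it. Only the 7 genes that passed in CCF could lose the test, from 7 of 27 alternatives for Atp5d to 19 for Ndufb9.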
